A study of Mus musculus with 12 samples.

Results

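Proteases that may cut the collagen COL17A1, and the inhibitors that hold metalloproteinases in check, were followed as 10 genes on 12 mouse skin arrays. The set was chosen by gene name, with earlier results of these data known. It held the neutrophil serine proteases Elane, Prtn3 and Ctsg, the membrane-bound metalloproteinases Adam9, Adam10, Adam15 and Adam17, and the tissue inhibitors Timp1, Timp2 and Timp3. All 10 of the 10 genes had a probe, out of 34763 gene names on the array, and a gene with more than 1 probe was represented by the probe with the highest mean level. The sorted populations were hair follicle stem cells (HFSCs, gated as CD34-high, ITGA6-high and ScaI-negative), interfollicular epidermis (IFE, ITGA6-high and ScaI-high) and total epidermal cells. Each of the 12 groups was measured on 1 one-colour array.

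Plucked HFSCs were taken 3 days after depilation by hand, and were set against unplucked HFSCs of the same kind of mouse. Aged wild-type C57BL/6 mice carried the age label "22M>" and were set against young wild-type C57BL/6 mice of 8 weeks. Col17a1 cKO mice, with deletion driven by the K14 promoter of basal keratinocytes and no strain label, were 12 weeks old and were set against tamoxifen-injected C57BL/6 wild-type controls of 12 weeks. Both of these received 2 mg of tamoxifen per mouse for 5 days, and the control labels name no Cre. Total epidermis and IFE came from aged and young mice only.

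COL17A1 spans the plasma membrane within the hemidesmosome, the junction that ties basal keratinocytes and HFSCs to the basement membrane. Its outer part can be shed from the cell surface by ADAM proteases, and neutrophil elastase can also cut it. TIMP proteins bind the catalytic site of metalloproteinases, and TIMP3 is the one of them known to block ADAM17. The granule proteases of neutrophils are transcribed in bone marrow precursors and stored as protein, so their transcripts need not follow their activity in skin. Transcript levels, the quantity measured here, show neither protein nor cleavage.

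Levels below are log2 processed spot intensities minus the 75th percentile of the same array, and a gene's level is compared only between arrays, never with another gene's. The scanner software flagged 49.71% to 64.97% of spots as well above background, its term for detected. The unplucked cKO and control HFSC arrays correlated least with the others (median r of 0.893 and 0.888, against 0.907 to 0.93 elsewhere), and called counts were also run without them. On slide 1, aged and young arrays filled different rows and the populations different columns, so age and slide row, and population and slide column, cannot be told apart. Control and cKO samples lay on slide 2. Of 8 HFSC markers 6 were higher in HFSCs than in IFE by limma, as were 2.86% of all names. Itga6, a gate gene of both populations, was lower, at 4.48 and 4.54 in aged and young HFSCs against 5.77 and 5.75 in IFE. Of 6 IFE markers 2 were lower in HFSCs by limma and 4 did not pass. Ly6a, the transcript of ScaI, was at -1.77 and 0.30 in aged and young HFSCs, against 3.69 and 4.37 in IFE. Cd34, Itga6 and Ly6a encode the proteins of the sort gates themselves.

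Elane encodes neutrophil elastase, Prtn3 proteinase 3 and Ctsg cathepsin G. Elane and Prtn3 are neighbours on chromosome 10, with starts 6645 bases apart. Their promoters are shown because these granule genes were compared for what they share that the choice of genes did not use. The 250 bases before each start, on GRCm38.p6 from RefSeq, are given for Elane (chr10:79886062-79886311, plus strand), Prtn3 (chr10:79879417-79879666, plus strand) and Ctsg (chr14:56102575-56102824, minus strand). Those of the inhibitors Timp2 (chr11:118355412-118355661, minus strand) and Timp3 (chr10:86300162-86300411, plus strand) stand beside them. Capitals mark 4 motifs on either strand, chosen after these sequences had been read: GAGGAAG (PU.1), AACGG (MYB), TATAA (TATA) and GGGCGG (GC box).
Elane: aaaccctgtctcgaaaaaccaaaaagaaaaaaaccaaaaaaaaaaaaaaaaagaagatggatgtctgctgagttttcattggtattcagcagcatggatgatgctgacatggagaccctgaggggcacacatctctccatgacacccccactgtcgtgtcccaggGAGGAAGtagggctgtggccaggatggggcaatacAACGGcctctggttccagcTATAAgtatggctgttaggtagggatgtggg
Prtn3: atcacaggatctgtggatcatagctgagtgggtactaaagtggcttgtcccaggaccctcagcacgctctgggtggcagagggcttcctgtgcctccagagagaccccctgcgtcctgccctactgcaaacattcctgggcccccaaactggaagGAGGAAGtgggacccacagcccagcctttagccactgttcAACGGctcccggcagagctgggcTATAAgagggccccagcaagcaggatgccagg
Ctsg: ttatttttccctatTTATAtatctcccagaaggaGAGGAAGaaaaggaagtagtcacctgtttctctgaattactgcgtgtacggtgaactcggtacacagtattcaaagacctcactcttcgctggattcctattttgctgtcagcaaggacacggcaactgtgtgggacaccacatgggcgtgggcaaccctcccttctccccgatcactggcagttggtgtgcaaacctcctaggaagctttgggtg
Timp2: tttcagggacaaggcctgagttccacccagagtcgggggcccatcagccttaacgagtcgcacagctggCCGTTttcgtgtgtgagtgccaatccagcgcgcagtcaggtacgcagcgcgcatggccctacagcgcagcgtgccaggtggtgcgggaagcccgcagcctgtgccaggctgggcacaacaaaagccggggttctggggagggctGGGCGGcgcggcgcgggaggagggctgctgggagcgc
Timp3: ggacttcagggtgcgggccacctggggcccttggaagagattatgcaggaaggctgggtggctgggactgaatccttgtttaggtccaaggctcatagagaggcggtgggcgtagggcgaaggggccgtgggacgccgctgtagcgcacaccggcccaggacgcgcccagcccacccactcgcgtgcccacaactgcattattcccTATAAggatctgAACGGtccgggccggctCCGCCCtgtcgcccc

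In the Elane promoter the PU.1, MYB and TATA letters began 85, 50 and 31 bases before the start, and in the Prtn3 promoter 95, 55 and 32 bases before it. Both thus carry the 3 motifs in the same order and on the same strand. Of 32851 promoters of this length, 10.6% held the PU.1 letters, 14.5% the MYB letters, 22.8% the TATA letters and 0.21% all 3. Ctsg held PU.1 letters 216 bases before the start, TATA letters on the other strand 236 bases before it, and no MYB letters. Timp2 and Timp3 each held a GC box, as 32.7% of promoters did, and no PU.1 letters. MYB letters stood in both, 181 bases before the Timp2 start on the other strand and 32 bases before the Timp3 start, and TATA letters only in Timp3. Timp2 and Timp3 promoters were 68.0% and 65.6% G and C, against 53.2% over all promoters. Of the 10 genes, 9 had a promoter entry, and Adam9 had none. These matches describe letters and not binding.

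The 3 neutrophil proteases lay at the edge of detection in every sorted population. Elane was at -2.77 in aged and -5.70 in young unplucked HFSCs, -3.46 in cKO and -3.38 in control unplucked HFSCs. After plucking it was at -3.59 in aged, -6.18 in young, -4.34 in cKO and -4.65 in control cells. In aged and young total epidermis it was at -4.15 and -3.75, and in aged and young IFE at -3.29 and -4.38. Only aged and control unplucked HFSCs and aged IFE were well above background, so the other 9 values are bounds on a dim spot. In bulk samples such as these, fewer cells with a transcript and less transcript per cell cannot be told apart.

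Ctsg was well above background on 3 arrays too: aged HFSCs at -2.31, control HFSCs at -3.19 and control plucked HFSCs at -4.07. It was at -3.86 in young, -3.10 in cKO, -3.72 in aged plucked, -5.29 in young plucked and -4.15 in cKO plucked HFSCs. In aged and young total epidermis it was at -4.17 and -4.60, and in aged and young IFE at -4.37 and -3.19. Prtn3 was detected in aged HFSCs at -3.43, in cKO plucked HFSCs at -3.29 and in control plucked HFSCs at -3.74, and its 12 levels lay between -4.97 and -3.29. The only array on which all 3 proteases were detected was that of aged unplucked HFSCs, and young HFSCs with or without plucking showed none of them. In total epidermis, at either age, none was detected. The dimmest probe flagged as detected differed between arrays, from -5.07 for unplucked control to -3.01 for unplucked cKO HFSCs. It is no detection limit for other probes: in young IFE it was at -3.64, below the undetected Ctsg. Ctsg at -3.10 in cKO HFSCs and at -3.19 in young IFE was undetected, whereas -3.19 in control HFSCs was detected. Detection alone therefore does not order these arrays by level.

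The Prtn3 probe is shown because it reads across a splice junction, at chr10:79343869-79344685 (mm9, plus strand), and is therefore matched in full by spliced RNA.
Prtn3 probe: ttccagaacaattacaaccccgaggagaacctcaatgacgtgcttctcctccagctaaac

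The Elane probe lay at chr10:79350902-79350961 and the Ctsg probe at chr14:56718795-56718854 (minus strand), each within an unbroken stretch of mm9. Timp1, an inhibitor of several matrix metalloproteinases and of ADAM10, was well above background on 0 of 12 arrays, at -6.25 to -4.05, and was left untested.

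**Figure D1:**
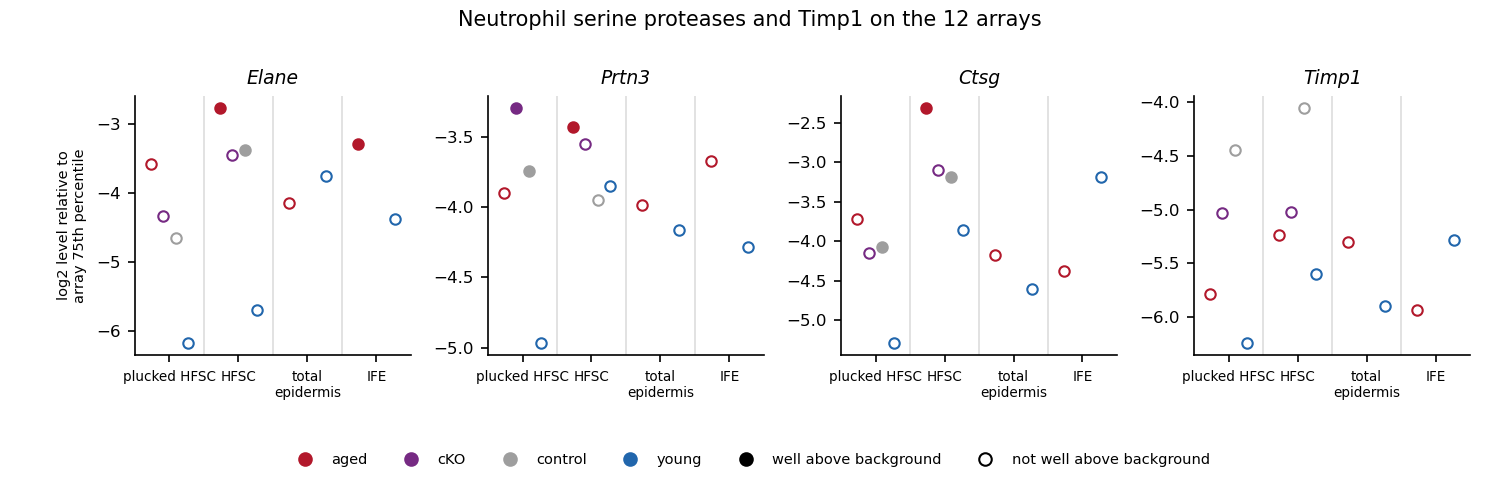
Log2 level relative to the array's 75th percentile (vertical axes) of Elane, Prtn3, Ctsg and Timp1 on each array, by cell population (horizontal axes) and kind of mouse (colour). Filled points were well above background: 3 arrays each for Elane, Prtn3 and Ctsg, and 0 for Timp1.

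Aged HFSCs were set against young HFSCs because the series concerns hair follicle aging through COL17A1 proteolysis. Elane was detected on 1 of 2 aged and 0 of 2 young HFSC arrays, and in the plucked pair on neither. Its aged mean was 1.87-fold above a floor set per young array, the higher of the array's dimmest detected signal and the probe's own. The undetected aged plucked array entered that mean as it stood, so 1.87 is no strict lower bound. Of the HFSC arrays, Elane was detected only on the unplucked aged and control ones. It thus entered the fit only with the array on the brighter side, and its test is not given. The fitted log2 difference, which reads the undetected spots as they stand, was 2.76, against 2.43 with quantile normalization alone and 0.15 with normexp and quantile normalization together.

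Ctsg, also detected on 1 of 2 aged and 0 of 2 young arrays, had an aged mean 2.10-fold above the same kind of floor (limma adjusted p = 0.932). With normexp and quantile normalization its fitted log2 difference was 0.36, against 1.56. Prtn3 had an aged mean 1.34-fold above its floor (limma adjusted p = 0.932). With normexp and quantile normalization its log2 difference was -0.09, against 0.75. For both genes the undetected aged plucked array entered the mean as it stood. Of 13 neutrophil markers on the array, Camp, Itgam and Csf3r were detected on 12 arrays, Cd177 on 11, S100a9 on 6, Ly6g on 4 and Mpo on 2. Ngp, S100a8 and Fcnb were detected on 1 array each, and Ltf, Cebpe and Ms4a3 on 0. Over the 11 markers on the array other than Itgam and Csf3r, the summed linear level was 0.547 and 1.4 in aged unplucked and plucked HFSCs, against 1.25 and 0.556 in the young ones. With Itgam and Csf3r the sum was 362 and 308 in aged and 283 and 345 in young HFSCs. Itgam and Csf3r together carry nearly all of that sum. In unplucked HFSCs Itgam was at 7.45 in aged and 7.37 in young cells, and Csf3r at 7.54 and 6.87. In plucked HFSCs Itgam was at 7.38 and 7.68, and Csf3r at 7.13 and 7.12. Of the Itgam probes 1 was far brighter than the others, so the Itgam part of the larger sums carries that doubt. What part neutrophil RNA has in the Elane and Ctsg values was not tested.

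Among the other genes, Timp3 was 0.78 and 0.76 higher in aged HFSCs in the unplucked and plucked pair (fit 0.77 ± 0.58, SE, n = 2 pairs, limma adjusted p = 0.932). Adam17, the protease also called TACE that sheds TNF and EGF receptor ligands, was higher by 0.39 and 0.28. Adam9 was lower by 0.56 and 0.16 and Adam10 by 0.55 and 0.06, whereas Adam15 and Timp2 went opposite ways in the 2 pairs. None of the 9 genes tested passed the threshold of an adjusted p under 0.05, nor did any of the 25428 gene names (0% higher and 0% lower). Of the 6 members detected on all 12 arrays, 0 had an unadjusted p under 0.05, against 4.83% of all names. In both pairs 2 of these 6 were higher and 2 lower in aged cells, against 30% and 25.8% of names. Their median log2 difference was 0.03, the same as over all names.

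The HFSC pairs allow only wide intervals. The 95% intervals of the aged minus young log2 difference ran from -1.23 to 0.51 for Adam9, -1.31 to 0.69 for Adam10, -0.84 to 0.95 for Adam15 and -0.55 to 1.22 for Adam17. They ran from -1.22 to 1.24 for Timp2 and from -0.70 to 2.25 for Timp3. Col17a1 itself was at 6.87 in aged and 7.39 in young unplucked HFSCs, and at 6.19 in aged and 5.67 in young plucked HFSCs, with opposite signs in the 2 pairs.

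Over all 4 populations, 0 of 7 tested members and 0 of 24821 names passed (0% in each direction), and 0 of the 6 members detected on all arrays and 8.59% of all names had an unadjusted p under 0.05. None of the 6 had 1 sign in all 4 pairs, whereas 12.2% of names were higher and 8.92% lower in aged cells in every pair. Elane was detected on 2 of 4 aged and 0 of 4 young arrays, with an aged mean 1.36-fold above the floor of the young arrays. It entered the fit only through those aged arrays, so its test is not given. Timp3 was higher in 3 of 4 pairs, by 0.53 ± 0.25 (SE, n = 4 pairs, limma adjusted p = 0.559). Prtn3 and Ctsg, each detected on 1 aged and 0 young arrays, had aged means 1.19-fold and 1.27-fold above that floor and did not enter the fit. Undetected aged arrays entered the means of all 3 proteases as they stood, so these folds are no strict bounds. The age effect in HFSCs minus that in total epidermis and IFE was 0.94 ± 0.43 for Adam17 (SE, limma adjusted p = 0.972). Of the 7 members and the 24821 names tested for this interaction, 0 passed (0% in each direction), and 0 of the 6 members detected on all arrays and 5.33% of names had an unadjusted p under 0.05.

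The cKO comparison sets protease and inhibitor transcripts of cKO HFSCs against those of control HFSCs. No member passed the test, over 2 pairs. Adam10 was at 3.51 in cKO and 4.10 in control unplucked HFSCs, and at 4.29 in cKO and 4.34 in control plucked HFSCs. Adam9 was at 2.33 and 2.28 in unplucked and plucked cKO HFSCs, against 2.69 and 2.64 in the control ones, which placed both cKO arrays 0.36 lower. Adam15 was at 2.70 and 1.95 in unplucked and plucked cKO cells, against 3.28 and 1.88 in control cells. Adam17 was at -0.78 and -0.63 in cKO cells, against -0.58 and -0.76 in control cells.

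Fitted cKO minus control differences were -0.36 ± 0.34 for Adam9, -0.32 ± 0.39 for Adam10, -0.26 ± 0.35 for Adam15 and -0.04 ± 0.35 for Adam17 (SE, n = 2 pairs, limma adjusted p of 0.908 to 0.991). For Adam17 the sign depends on the probe: the other of its probes, which shares 52 bases with it and followed it over the 12 arrays with r = 0.499, gave 0.59. Timp2 was 0.36 higher without plucking and 1.02 lower after it in cKO cells, and Timp3 0.50 higher and 0.25 lower. Prtn3 was detected in both groups only after plucking, where it was 0.45 higher in cKO cells. None of the 9 tested members and none of the 25428 names passed (0% in each direction), and at an unadjusted p under 0.05 the counts were 0 of 9 and 6.47%. In both pairs 0 of the 6 members detected on all arrays were higher and 2 were lower in cKO cells, against 23.9% and 25.7% of names. A 95% interval of -1.32 to 0.68 for Adam10 and of -1.56 to 0.90 for Timp2 shows how large a difference these pairs leave possible. Col17a1 was at 7.0 in cKO and 7.31 in control unplucked HFSCs and at 5.79 and 6.22 in cKO and control plucked ones. The labels do not name the deleted exons, so this probe checks no genotype.

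**Figure D2:**
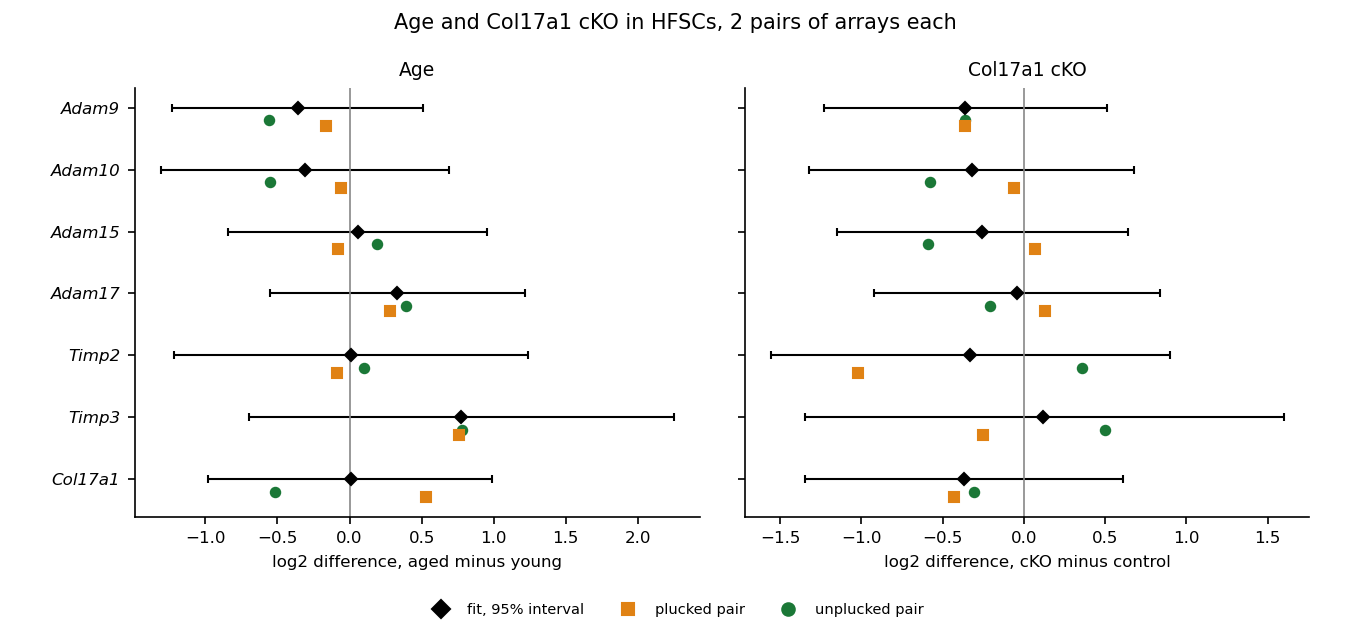
Log2 differences in HFSCs (horizontal axes) for the 6 members detected on all arrays and for Col17a1, aged minus young (left) and cKO minus control (right). Diamonds with bars are fitted differences with 95% intervals, squares the plucked and circles the unplucked pair. Every interval includes 0.

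Control HFSCs were at the same time compared with young ones, which differ in tamoxifen, age in weeks and slide at once. Adam9 was 0.92 and 1.49 higher in the unplucked and plucked control arrays (fit 1.20 ± 0.34, SE, n = 2 pairs, limma adjusted p = 0.571). Timp2 was 1.75 and 0.47 lower (fit -1.11 ± 0.48, SE, n = 2 pairs, limma adjusted p = 0.576). Elane was detected on 1 of 2 control and 0 of 2 young arrays. Its control mean, undetected array included, was 1.05-fold above the floor of the young arrays. Elane entered the fit only with that control array and the unplucked aged one, so its test is not given. Of the 9 members 0 passed, against 0% called in each direction. Of the 6 members detected on all arrays 1, Adam9, had an unadjusted p under 0.05, against 8.73% of all names. In both pairs 3 of the 6 were higher and 2 lower in control cells, against 30.7% and 28.6% of names. Since control and young arrays lay on different slides, slide and group cannot be told apart here.

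Plucking pulls out the hair and triggers follicle growth. No member passed the test for it, and the inhibitors Timp3 and Timp2 differed in opposite directions. Timp3, which the matrix holds and which inhibits ADAM17, was at 1.88, 1.21, 1.46 and 1.12 in plucked aged, cKO, control and young HFSCs. Without plucking it was at 0.27 in aged, -1.54 in cKO, -2.04 in control and -0.51 in young HFSCs. All 4 plucked arrays lay above all 4 unplucked ones, as was the case for 6.28% of all names tested. The fitted difference was 2.37 ± 0.41, a 5.17-fold ratio (SE, n = 4 pairs, higher in 4 of 4, limma adjusted p = 0.0873), which misses the threshold. It passed with normexp and quantile normalization (1.69, limma adjusted p = 0.0196) and when only names detected on every array were tested (2.37, limma adjusted p = 0.0321). These settings called 726 and 421 names higher, against 100 in the main fit, so more names passed in general. Within slide 1 the Timp3 difference was 1.62 and within slide 2 it was 3.12. Without the unplucked control and cKO arrays the fit rests on the slide 1 pairs alone, so it gives the same 1.62 and is no further check.

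Timp2, which inhibits matrix metalloproteinases and helps MMP14 to activate pro-MMP2, showed the opposite sign. It was at 3.27, 1.87, 2.89 and 3.36 in plucked aged, cKO, control and young HFSCs, against 5.10, 3.60, 3.24 and 5.00 in the unplucked ones. Each plucked array was below its own partner, though the groups overlapped at the low control value. The fitted difference was -1.39 ± 0.34, a ratio of 2.62 (SE, n = 4 pairs, limma adjusted p = 0.148). The control pair differed least, by -0.35, and without it the difference was -1.73. The summed linear level of 6 fibroblast markers was 2.07 to 2.47 on plucked and 4.27 to 9.18 on unplucked HFSC arrays, and its part in this difference was not tested. Col1a2 carries that sum, at 1.90 lower after plucking (limma adjusted p = 0.0712), whereas Col1a1 was 0.38 higher. Dcn, detected on 3 plucked and 0 unplucked arrays, had a plucked mean 1.33-fold above the floor of the unplucked ones. It entered the fit only through plucked arrays. The median difference over the 4 tested genes of the list, Dcn included, was 0.15.

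Adam15, a disintegrin metalloproteinase of epithelial and endothelial junctions, was at 1.71, 1.95, 1.88 and 1.79 in plucked aged, cKO, control and young HFSCs. Without plucking it was at 2.72 in aged, 2.70 in cKO, 3.28 in control and 2.53 in young HFSCs. The 4 plucked values lay within 0.24 of each other and below all unplucked ones, a separation seen in 4.42% of names. The difference was -0.98 ± 0.25 (SE, n = 4 pairs, limma adjusted p = 0.156), and with normexp and quantile normalization it was -0.94 and passed (limma adjusted p = 0.0399). That setting called 394 names lower, against 27 in the main fit. Col17a1 was separated in the same direction, at 5.67 to 6.22 in plucked and 6.87 to 7.39 in unplucked HFSCs (-1.18 ± 0.27, SE, n = 4 pairs, limma adjusted p = 0.134).

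Adam10, the main sheddase of Notch receptors and of E-cadherin, was at 3.94, 4.29, 4.34 and 4.0 in plucked aged, cKO, control and young HFSCs, against 2.59, 3.51, 4.10 and 3.14 in the unplucked ones. It was higher after plucking in 4 of 4 pairs, with overlap at the unplucked control array (0.81 ± 0.28, SE, limma adjusted p = 0.24). Adam9 was lower in 4 of 4 pairs, by 0.62 in young and 0.05 in cKO cells at the extremes, and Adam17 in 3 of 4. Neither reached an adjusted p under 0.6 (0.647 and 0.659). Ctsg was detected on 1 of 4 plucked and 2 of 4 unplucked arrays. In the control pair, the only pair with both detected, it was 0.88 lower after plucking. Without its unplucked arrays Ctsg would not have entered the fit, so its test is not given. Elane was detected on 0 of 4 plucked and 2 of 4 unplucked arrays. Its unplucked mean, undetected arrays included, was 1.35-fold above the floor of the plucked arrays. Elane entered the fit only through unplucked arrays, so its test is not given. Prtn3 was detected on 2 of 4 plucked and 1 of 4 unplucked arrays, in no pair on both (limma adjusted p = 0.686).

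By limma, 0 of the 9 tested members passed for plucking, against 0.393% of names called higher and 0.106% called lower. Of the 6 members detected on all arrays, 4, namely Timp3, Timp2, Adam15 and Adam10, had an unadjusted p under 0.05, against 17.6% of all names. Higher in all 4 pairs were 2 of these 6 and 14.0% of names, and lower in all 4 were 3 of them and 15.2% of names. The median log2 difference was -0.24 over the 6 and -0.06 over all names. HFSC markers moved beside these values: 4 of 8 were lower in every pair, 0 passed, and their summed linear level was 224 to 311 in plucked against 299 to 472 in unplucked HFSCs. The part of that shift in the members' values was not tested.

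**Figure D3:**
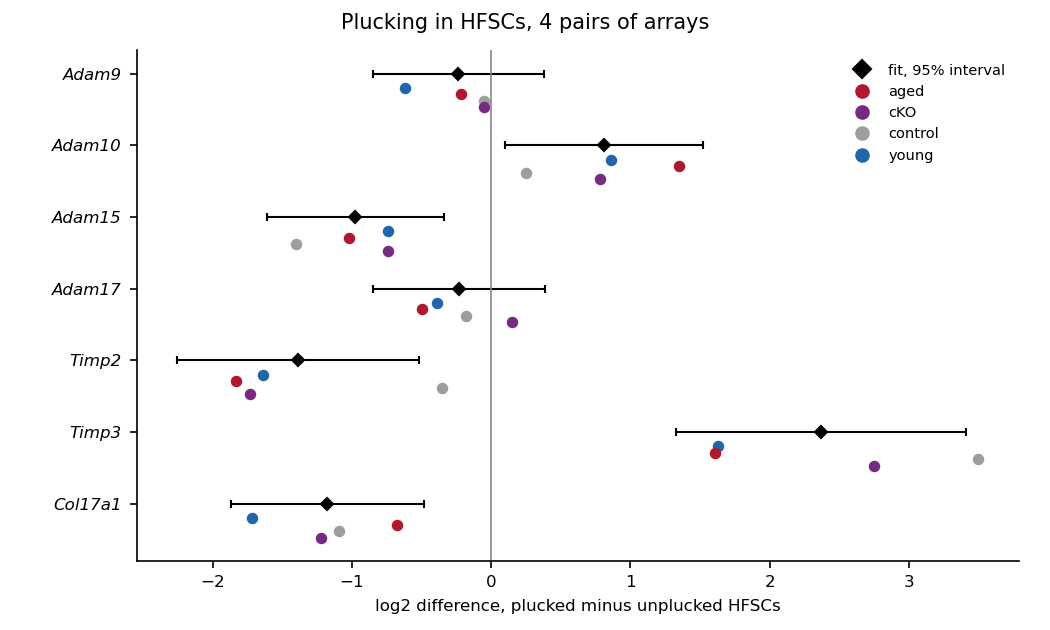
Log2 difference, plucked minus unplucked HFSCs (horizontal axis), for the 6 members detected on all arrays and for Col17a1. Diamonds with bars are fitted differences with 95% intervals, and points the 4 pairs by kind of mouse. Timp3 and Adam10 lie above 0 in all 4 pairs, and Adam9, Adam15, Timp2 and Col17a1 below 0.

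Among the 7 members tested between cell populations, Timp2 was the one that passed. It was 102-fold higher in unplucked HFSCs than in IFE and 16.6-fold higher than in total epidermis. Its level was 5.10 in aged and 5.00 in young HFSCs, against 1.36 and 0.64 in aged and young total epidermis and -2.22 and -1.02 in aged and young IFE. Every HFSC array, plucked or not, lay above every epidermal array, and the order HFSC, total epidermis, IFE held at both ages. The log2 difference from IFE was 6.67 ± 0.48 (SE, n = 2 pairs, limma adjusted p = 0.00386) and from total epidermis 4.05 ± 0.48 (SE, n = 2 pairs, limma adjusted p = 0.0181).

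The Timp2 call did not rest on a single probe. The probe used lay at chr11:118163146-118163205 (mm9, minus strand), and a further probe, shown here because it spans exons at chr11:118171964-118178741 (mm9, minus strand) and shares 0 bases with it, gave a similar profile.
Timp2 further probe: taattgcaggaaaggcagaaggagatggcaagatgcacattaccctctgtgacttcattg

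By that probe Timp2 was at 3.31 in aged and 3.47 in young HFSCs, -0.68 and -0.76 in aged and young total epidermis and -2.91 and -3.32 in aged and young IFE, the last of which was not well above background. Its differences were 6.51 from IFE (limma adjusted p = 0.00202) and 4.11 from total epidermis (limma adjusted p = 0.00805). Under the alternatives run for the 2 comparisons, they ranged from 5.61 to 6.83 and from 3.77 to 4.25, with adjusted p of at most 0.013 and 0.0356.

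Fibroblast markers, mostly through Col1a2, were also brighter on HFSC arrays. Their summed linear level over 6 genes was 2.07 to 9.18 on HFSC arrays and 0.387 to 0.584 on total epidermis and IFE arrays. Col1a2 was 25.7-fold (limma adjusted p = 0.0043) and Col1a1 at least 2.96-fold higher in HFSCs than in IFE. Col1a1 was detected only on HFSC arrays and entered the fit only through them, so its test is not given. Of the other genes in the list, Col3a1 was detected on 5, Dcn on 3, and Lum and Pdgfra on 0 of 12 arrays. The part of fibroblast RNA in the Timp2 level was not tested.

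**Figure D4:**
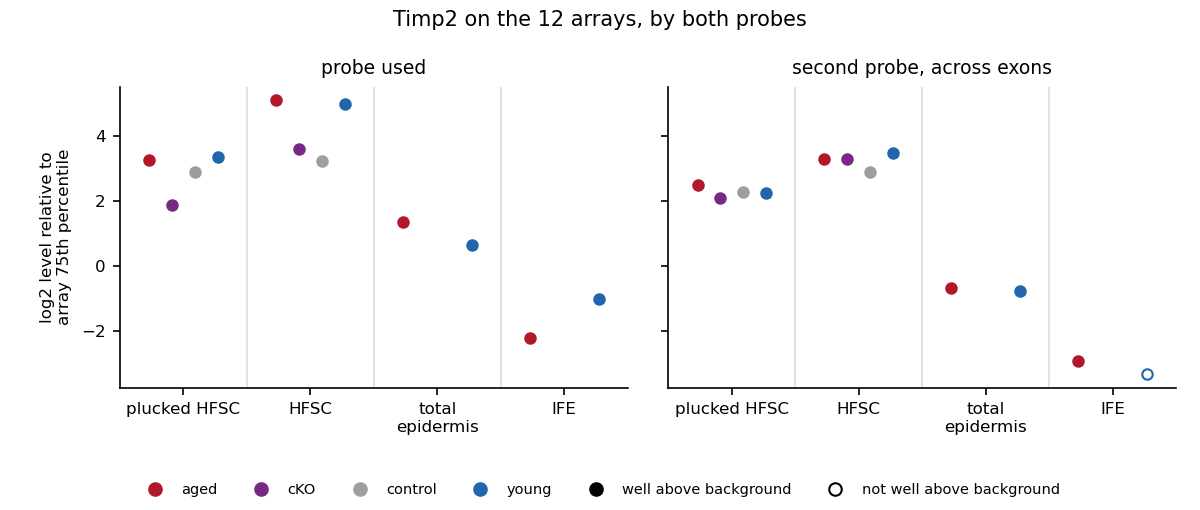
Log2 level of Timp2 relative to the array's 75th percentile (vertical axis) by cell population (horizontal axis) and kind of mouse (colour), for the probe used (left) and the further probe (right); open points were not well above background. On both, HFSC arrays lie highest, total epidermis between 1.36 and -0.76, and IFE lowest.

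None of the proteases among the members passed between populations. Adam10 was at 2.59 and 3.14 in aged and young unplucked HFSCs, against 3.59 and 3.57 in aged and young IFE, a log2 difference of -0.72 ± 0.28 (SE, n = 2 pairs, limma adjusted p = 0.243, 95% interval -1.41 to -0.02). Adam17 was at 0.29 and -0.10 in aged and young HFSCs, against -1.22 and -0.34 in aged and young IFE (0.88 ± 0.39, SE, limma adjusted p = 0.301). Adam9 ranged from 0.57 to 1.59 in total epidermis and IFE and from 1.21 to 1.77 in aged and young HFSCs. Adam15 spanned 2.19 to 2.59 in the 4 epidermal arrays. Timp3 was at 0.27 and -0.51 in aged and young HFSCs, against 0.55 and -0.24 in aged and young IFE (-0.28 ± 0.35, SE, limma adjusted p = 0.728). Of 7 tested members, 1 rose and 0 fell in HFSCs against IFE, where 2.86% of 24821 names rose and 2.16% fell. Of the 6 members detected on all arrays, 2, Timp2 and Adam10, had an unadjusted p under 0.05, against 19.6% of names. In both pairs 2 of the 6 were higher and 2 lower, against 27.4% and 36.6% of names. Against total epidermis again 1 member, Timp2, rose and 0 fell, where 2.27% of names rose and 2.03% fell. There 1 of the 6 and 20.3% of names had an unadjusted p under 0.05, and 3 of the 6 were higher and 1 lower in both pairs, against 27.1% and 33.8% of names.

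**Figure D5:**
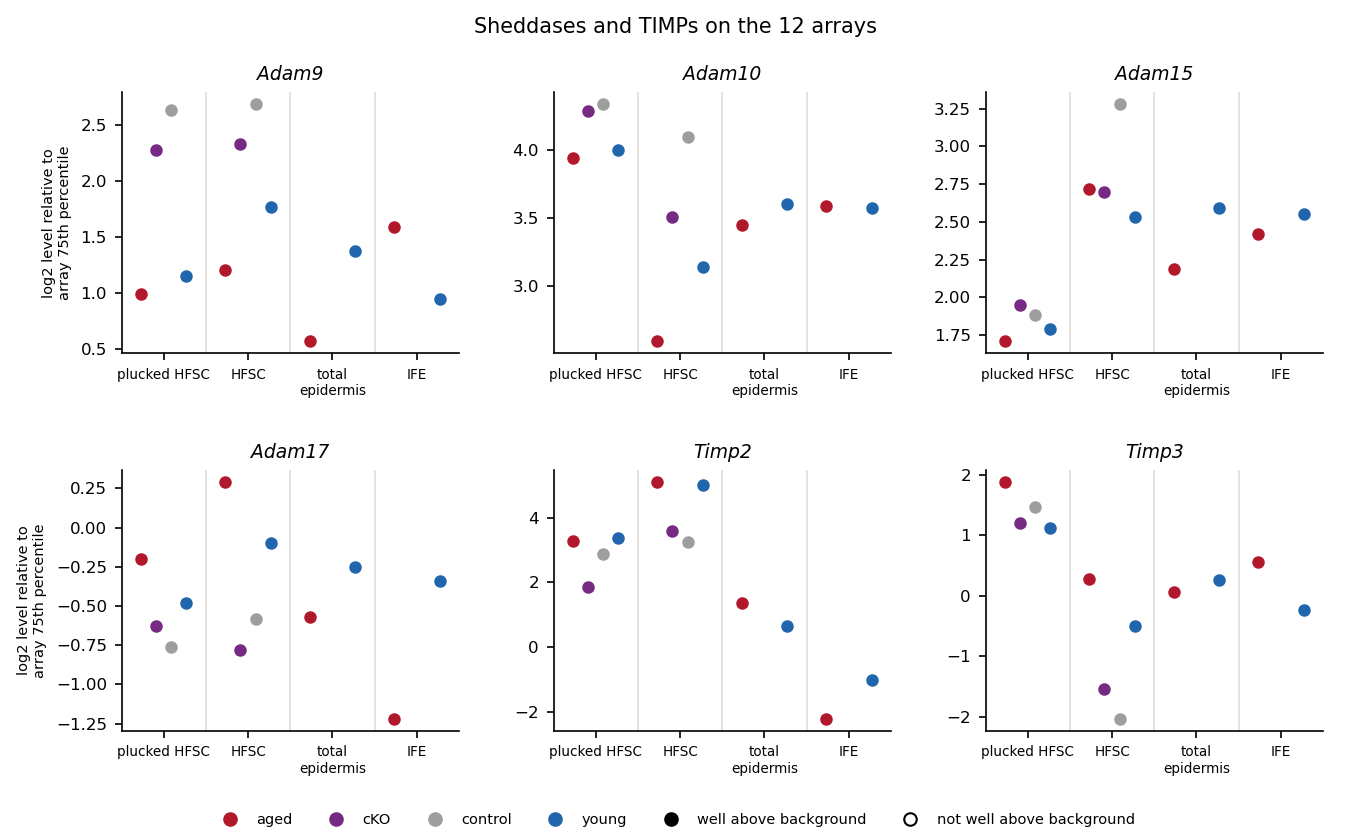
Log2 level relative to the array's 75th percentile (vertical axes) of the 6 members well above background on all 12 arrays, by cell population (horizontal axes) and kind of mouse (colour). Timp2 spans 7.32 between its highest and lowest array, Timp3 3.91, and the 4 Adam genes 1.52 to 2.12.

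Most neighbours in the order of the 12 levels did not differ beyond the residual spread of the HFSC fit. For Adam10, Adam15 and Timp3 that held for 10 of 11 neighbouring gaps, for Adam9 and Adam17 for 9 of 11, and for Timp2 for 5 of 11. The highest Adam10 arrays were those of plucked HFSCs and of unplucked control HFSCs, and the lowest was that of unplucked aged HFSCs. For Adam9 the 4 control and cKO arrays, all on slide 2, were the highest, separated by 0.51 from young HFSCs. For Adam17 aged HFSCs were highest and aged IFE lowest. For Timp3 the 4 plucked arrays led, and unplucked control HFSCs were lowest.

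Further protease and inhibitor genes followed 5 lists, whose counts stand beside 2.86% of all names risen and 2.16% fallen against IFE, 2.27% and 2.03% against total epidermis, and 0.393% and 0.106% for plucking. Among inhibitors of neutrophil serine proteases, 10 of 12 genes were on the array and 8 were tested. Serpina3n, which inhibits cathepsin G and elastase, was at least 10.1-fold higher in HFSCs than in IFE and at least 14.3-fold higher than in total epidermis. It was called in both, but it was detected only on HFSC arrays and entered the fit only through them, so its tests are not given. The other 7 did not pass. After plucking Serpina3n stood 2.87 lower (limma adjusted p = 0.0649), Serpinb6b 2.07 higher (limma adjusted p = 0.0766) and Serpina1a 0.83 lower (limma adjusted p = 0.245), and 0 of 8 passed. The list's median was 0.69 against IFE and -0.02 after plucking, beside -0.08 and -0.06 over all names.

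Among partners of ADAM10 and ADAM17 and further ADAM genes, 0 of 13 rose and 2 fell in HFSCs against IFE. Tspan5, a tetraspanin that binds ADAM10, was at 1.36 and 2.00 in aged and young HFSCs, against 3.93 and 3.91 in aged and young IFE (-2.24, limma adjusted p = 0.0175). It was also lower than in total epidermis (-2.0, limma adjusted p = 0.0278). Adam8, a protease of leukocytes and tumour cells, was at least 2.95-fold lower in HFSCs than in IFE. It was called, but it was detected only on total epidermis and IFE arrays. Without the IFE arrays it would not have entered the fit, so its test is not given. For plucking 0 of 14 passed. Rhbdf2, the iRhom that brings ADAM17 to the cell surface, was 1.83 higher (limma adjusted p = 0.0709), and Furin, which removes ADAM prodomains, 0.81 higher (limma adjusted p = 0.177). Tspan33, detected on 3 plucked and 0 unplucked arrays, had a plucked mean 1.09-fold above the floor of the unplucked ones. It entered the fit only through plucked arrays, so its test is not given. The medians were -0.18 against IFE and 0.09 after plucking.

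Of 7 tested matrix metalloproteinase and inhibitor genes, Mmp11 alone passed against IFE, at least 10.8-fold higher in HFSCs (limma adjusted p = 0.0154), and 0 passed against total epidermis. After plucking Mmp2 was 1.18 lower, Mmp15 1.51 higher and Mmp14 1.02 higher, with limma adjusted p of 0.216 to 0.349. Of the plasminogen system, Serpinb2, the inhibitor PAI-2, was 3.47 lower than in IFE (limma adjusted p = 0.0079) and 3.2 lower than in total epidermis (limma adjusted p = 0.0141), and the other 5 of 6 did not pass. After plucking Serpinb2 was 1.01 lower (limma adjusted p = 0.202). Plaur, the urokinase receptor, was detected on 3 plucked and 0 unplucked arrays, with a plucked mean 1.37-fold above the floor of the unplucked ones. It entered the fit only through plucked arrays, so its test is not given.

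Of 15 further skin proteases with their inhibitors, Klk7, a kallikrein that cuts corneodesmosomes, rose in HFSCs against IFE by 2.01 (limma adjusted p = 0.0447), and 0 of 15 passed against total epidermis. After plucking Spint2 was 1.02 lower, Klk6 1.84 higher and Cst6 1.15 higher (limma adjusted p of 0.17 to 0.306). None of the 5 lists had a gene past the threshold for age, cKO, control against young or the age interaction.

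Genes whose levels over the 12 arrays were most alike were named for the 6 members detected on all of them, among 16023 names. For Timp2 they were Foxc1, Calml3 and Thsd1 (Pearson r of 0.951 to 0.946), and for Timp3 Car12, Tubgcp4 and Uchl5 (0.963 to 0.946). For Adam10 they were Acer3, Cct2 and Dis3 (0.949 to 0.923), and for Adam15 Cav2, Stim1 and Maf (0.958 to 0.945). Adam9 was most like Chuk and Nxf1 (0.954 and 0.934) and a probe without a symbol. Adam17 had the lowest likeness, with Scamp1, Angel1 and Tmub1 at 0.841 to 0.813. These 12 points share arrays, slides and the HFSC and plucking groups, and are a description.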

How the data were processed

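RNA of 12 sorted mouse skin samples was amplified from 1 to 10 ng and hybridised to Agilent one-colour arrays, per the labels' protocols. The authors deposited spot intensities made with Agilent Feature Extraction 10.7.3.1, background-subtracted and detrended per the file headers, with coordinates on mm9. They also deposited a value table in log2, centred near 0 for each probe, whose making is not given in the sources used here. As an alternative it followed the intensities with r of at least 0.9999.

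Control spots and those flagged as outliers (129 to 269 per array) were dropped here, and none was saturated. Each intensity was taken as log2, set relative to the 75th percentile of its array and averaged over spots of a probe. Of 55681 probes, 28026 were matched to a RefSeq symbol and 27655 kept their file name. No pair of arrays held identical values. Differences were fitted in R 4.3.3 with limma 3.58.1 and the data.table package, version 1.17.8, with Benjamini-Hochberg adjustment over every name detected on 2 or more fitted arrays and a threshold of 0.05. Figures were drawn with matplotlib 3.10.9 and pandas 2.3.3 in Python 3.11.15. With 1 array per group, the spread came from additive fits. Mouse type and plucking were fitted over 8 HFSC arrays, and population and age over 8 young and aged arrays (3 residual degrees of freedom each; 2 with the interaction). Separate animals are not stated in the labels, so the p-values cover the spread among these samples alone, and that spread may be technical. Array number, not counting, limits the precision.

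An "at least" fold, or a fold above a floor, sets the brighter group's mean against a floor per array. That floor is the higher of the array's dimmest detected signal and the dim probe's own. Undetected arrays of the brighter group enter its mean as they stand. Other probes can be undetected above the dimmest detected signal. Such a fold is thus an approximate bound, and no strict one even where all arrays of the brighter group were detected. Alternatives changed background correction, scale, filter, probe choice, value table and the arrays included, and the fits were tested on simulated data. Members and lists were chosen with earlier results of these data known. All 10 members are named throughout. Of each list the genes past the threshold are named, up to 4 by smallest p, and otherwise the 3 of smallest p for plucking and HFSCs against IFE; 1 gene that this rule names is not reported here. For likeness the 3 names of highest r are given.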

Additional observations from a re-analysis of the deposited data

Results flagged for a closer look

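For Adam17 the age difference had one sign in HFSCs and the other in epidermis: aged minus young was 0.39 and 0.28 in unplucked and plucked HFSCs, but -0.32 in total epidermis and -0.88 in IFE. The difference between these effects was 0.94 (limma adjusted p = 0.972).

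For Prtn3 the plucked minus unplucked difference was 0.26 and 0.20 in cKO and control HFSCs, but -0.47 and -1.12 in aged and young HFSCs. The difference between the slides was 1.03 (limma adjusted p = 0.987). No pair had both arrays well above background and the young pair had neither, so these signs are read from dim spots and show no measured reversal.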

How the results depend on the processing

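The Timp2 calls against IFE and total epidermis held under every alternative run for them. No member passed under any alternative for age, cKO, control against young or the interaction. For plucking, 127 names passed (78.7% higher). The count was 1120 with normexp and quantile normalization (64.8% higher), 703 with names detected on every array (59.9% higher), 273 with the mean over probes and 22 without a filter. It was 0 within slide 1, within slide 2 and without any 1 of the 4 pairs. It was also 0 without the unplucked control and cKO arrays, a run added after seeing the data. That run rests on the slide 1 pairs alone and is no check separate from slide 1. Against IFE the count of 1246 ranged from 707 to 1134 over left-out pairs. Against total epidermis the count of 1068 was 653 without a filter and ranged from 582 to 933 over left-out pairs; the array median as scale gave 62.4% higher there, against 52.8%.

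Of 689 member values under alternatives, 648 kept direction and side of the threshold, 3 newly passed (Timp3 and Adam15 for plucking: 1.69 and -0.94 with normexp, and Timp3 2.37 with names detected on every array), 32 turned sign and 6 moved by more than the error, all of them values from a single pair: Timp2 for cKO, and Elane, Prtn3, Timp2 and Timp3 for control against young. Within slide 2 Prtn3 was 0.23 for plucking. For age in HFSCs Adam15 was -0.20 and Timp2 -0.25 with the array median as scale, Timp2 -0.01 in the authors' table and Prtn3 -0.09 with normexp. Over 4 populations Adam15 was 0.00 and Timp2 0.10 with normexp, and Timp2 0.01 with the mean over probes and 0.15 by its further probe. For cKO, Adam17 was 0.27 with the mean over probes and 0.59 by its other probe, Timp2 0.11 by its further probe, and Timp3 -0.04 with normexp and -0.01 with the array median. Without the unplucked control and cKO arrays, cKO values were 0.07 for Adam15, 0.13 for Adam17 and -0.25 for Timp3, and control against young was 0.35 for Timp3. The interaction of Timp2 was -0.21 by its further probe. Leaving out pairs or arrays gave ranges of -0.08 to 0.19 (Adam15) and -0.09 to 0.10 (Timp2) for age in HFSCs. For cKO they were -0.59 to 0.07 (Adam15), -0.21 to 0.13 (Adam17), -1.02 to 0.36 (Timp2) and -0.25 to 0.50 (Timp3). For control against young the range was -1.52 to 0.35 (Timp3). For age over 4 populations it was -0.31 to 0.12 (Adam17) and -0.39 to 0.24 (Timp2). For the interaction it was -0.49 to 0.00 (Adam10), -1.0 to 0.45 (Adam9), -0.71 to 1.21 (Timp2) and -0.02 to 0.97 (Timp3). The causes were not tested.

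The array median as scale moved the median of all names to -0.23 for age in HFSCs, -0.15 for cKO, 0.20 for control against young, -0.17 for age over 4 populations and 0.13 for HFSCs against total epidermis. No paired analysis was possible because the groups share only the replicate number 1; the pairs in the text match arrays by mouse type, plucking or population, which the additive fits hold as terms. Elane, Ctsg and Prtn3 near background, and Timp1 below it, limit what these arrays can show.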
